A study of Mus musculus with 16 samples.

Results

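The receptors through which blood-forming cells read cytokines and growth factors were followed across hematopoietic stem cells (HSC) and common lymphoid progenitors (CLP) of mouse bone marrow, measured on 16 Affymetrix arrays. The set was defined by gene symbol as Kit, Flt3, Csf1r, Tek, Il7r, Il2rg, Csf2ra, Csf2rb, Csf3r and Epor. By the platform annotation 9 of these 10 genes matched a probe set, of 18193 genes in all; Il2rg is not analysed here. Where a gene had several probe sets, the brightest on average stands for it. Of the 9 genes, 8 passed the filter on low values for tests among HSC. All 9 passed it for tests that include CLP, Il7r only through CLP and Tek only through HSC.

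The study sorted HSC from mitochondrial mutator mice to compare them with physiologic stem cell ageing. Mutator HSC came from mice of 32 weeks with the genotype Polgtm1Lrsn-/-, which carry a mitochondrial DNA polymerase without proofreading in every tissue (n = 3). Mid-aged WT HSC came from Polgtm1Lrsn+/+ mice, also of 32 weeks (n = 3). Old HSC were taken from wild-type mice of 24 months (n = 3) and young HSC from wild-type mice of 9 to 12 weeks (n = 3). The CLP were sorted from wild-type mice of 8 to 12 weeks into Ly6D+ CLP (n = 2) and Ly6D- CLP (n = 2), Ly6D being a surface protein of progenitors committed to the B lineage. All groups are labelled C57Bl6 and female, and RNA came from 4000 to 7000 cells per sample.

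These receptors belong to a few families. Kit, Flt3 and Csf1r are related tyrosine kinase receptors for stem cell factor, Flt3 ligand and macrophage colony-stimulating factor, and Tek (Tie2) is the tyrosine kinase receptor for angiopoietins. Il7r, Csf2ra, Csf2rb, Csf3r and Epor have no kinase of their own and signal through Janus kinases and STAT proteins. In the marrow, Kit and Tek are known from stem cells, Flt3 and Il7r from lymphoid progenitors, Csf1r, Csf2ra, Csf2rb and Csf3r from the myeloid lineages, and Epor from erythroid progenitors. HSC are commonly sorted on Kit and on a lack of Flt3, and CLP on Il7r, Flt3 and low Kit. The gates used here are not stated in the labels, so the difference of these 3 genes between HSC and CLP can be set by the sort.

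Promoter windows of 5 members are shown because Kit and Tek were the members lower in CLP, Flt3 and Il7r those highest over young HSC in CLP, and Csf3r the one that differed between the CLP groups. The sequences are from RefSeq (GRCm38.p6), each 300 bases around 1 annotated transcript start and read along the gene's strand. For Kit and Flt3 that start is the outermost one annotated for the gene, while it lies 65 bases inside it for Il7r, 203 for Tek and 1218 for Csf3r. Windows of 8 of the 10 genes were searched for motifs, those other than Csf1r and Csf2rb, and for Kit 1 of 2 windows is given. Csf1r was left out of this search by choice. Capitals mark matches, on either strand, to a short motif of a blood transcription factor family.
Kit promoter, chr5:75574737-75575036, plus strand: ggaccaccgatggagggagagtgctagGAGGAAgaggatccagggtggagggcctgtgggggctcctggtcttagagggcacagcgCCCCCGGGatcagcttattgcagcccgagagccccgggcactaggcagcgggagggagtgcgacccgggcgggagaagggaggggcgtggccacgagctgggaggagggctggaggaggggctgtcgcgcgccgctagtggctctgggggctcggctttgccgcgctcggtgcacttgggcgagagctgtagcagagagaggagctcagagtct
Tek promoter, chr4:94739039-94739338, plus strand: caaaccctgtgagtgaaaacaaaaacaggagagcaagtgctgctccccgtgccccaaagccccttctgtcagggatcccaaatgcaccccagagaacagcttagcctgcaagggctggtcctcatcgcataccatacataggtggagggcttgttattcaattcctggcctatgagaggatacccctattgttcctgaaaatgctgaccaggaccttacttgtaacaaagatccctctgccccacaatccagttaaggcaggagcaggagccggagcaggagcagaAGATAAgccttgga
Flt3 promoter, chr5:147400440-147400739, minus strand: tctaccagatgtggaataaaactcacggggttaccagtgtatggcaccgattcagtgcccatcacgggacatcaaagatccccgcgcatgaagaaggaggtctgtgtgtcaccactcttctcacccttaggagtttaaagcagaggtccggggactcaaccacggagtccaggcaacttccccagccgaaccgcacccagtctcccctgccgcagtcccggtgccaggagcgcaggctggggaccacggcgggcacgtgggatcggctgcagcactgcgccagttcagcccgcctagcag
Il7r promoter, chr15:9529827-9530126, minus strand: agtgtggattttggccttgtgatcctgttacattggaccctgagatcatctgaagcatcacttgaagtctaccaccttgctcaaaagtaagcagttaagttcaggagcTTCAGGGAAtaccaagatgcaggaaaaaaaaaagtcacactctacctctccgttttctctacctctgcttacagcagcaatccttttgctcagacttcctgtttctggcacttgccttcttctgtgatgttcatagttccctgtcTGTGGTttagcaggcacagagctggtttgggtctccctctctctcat
Csf3r promoter, chr4:126024409-126024708, plus strand: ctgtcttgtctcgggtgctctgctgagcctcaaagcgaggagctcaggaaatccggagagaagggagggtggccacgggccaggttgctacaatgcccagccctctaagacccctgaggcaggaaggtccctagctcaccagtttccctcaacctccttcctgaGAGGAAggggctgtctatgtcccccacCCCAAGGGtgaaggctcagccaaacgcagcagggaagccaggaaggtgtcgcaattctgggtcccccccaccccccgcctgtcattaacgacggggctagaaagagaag
For the GATA family the letters searched were AGATAA, found in 11.2% of all 32851 windows of the same length. For PU.1 they were GAGGAA, found in 28.3% of the windows, and for RUNX proteins TGTGGT, found in 16.8%. For EBF they were CCCNNGGG, found in 13.7%, and for STAT proteins TTCNNNGAA, found in 8.3%. The Kit and Csf3r windows each held the PU.1 and the EBF letters once. Il7r had 1 STAT and 1 RUNX match, Tek had 1 GATA match at base 287 of its window, and the Flt3 window held none of the 5. These matches describe letters in the windows, and no measurement of binding was made.

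Several arrays stood apart in ways the labels do not give, and 5 of them in a way that goes against the label female. Xist, the RNA that coats the silenced X chromosome in females, lay between 9.12 and 16.8 in mid-aged WT replicate 3 and the 4 CLP arrays, against 3507 to 11022 in the other 11, and Eif2s3y of the Y chromosome was at 423 to 758 in those 5 arrays. The log2 ratio of the 3 prime over the 5 prime actin probe set was 4.74 to 5.25 in mutator and 4.24 to 5.26 in mid-aged WT HSC, against 2.20 to 2.27 in old and 2.39 to 2.61 in young HSC. Among CLP it was 3.85 in Ly6D+ replicate 2 and 2.51 in replicate 1, against 2.11 and 2.52 in Ly6D- CLP, and the Gapdh ratio was 3.79 and 2.88 in those Ly6D+ arrays and 2.80 and 3.05 in Ly6D- CLP. The mid-aged WT group thus held arrays of both sex-linked patterns in its comparisons with mutator and young HSC. In CLP against young HSC the cell type and the sex-linked pattern cannot be told apart, nor can age group and actin ratio in mid-aged WT against young HSC. Polg averaged 100.3 ± 30.6 in mutator and 143 ± 26.4 in mid-aged WT HSC (SD, n = 3 each), which does not check the genotype, since the mutator allele alters proofreading and not the transcript as a whole. The 7 HSC marker genes summed to 795 to 1540 in CLP, against 8153 to 9900.2 in mutator, 7475 to 9517 in mid-aged WT, 14239 to 16566 in old and 11305 to 11896 in young HSC. The 10 CLP and early B markers summed to 29112 and 32950 in Ly6D+ CLP and to 10257 and 10282 in Ly6D- CLP, against 209.8 to 454 in HSC, so the cell type labels matched these genes. Arrays of a group differed most in mid-aged WT HSC, where the SD of the log2 difference over genes was 0.741 and 0.719 between replicate 1 and the other arrays and 0.545 between those. It was 0.653 in Ly6D+ and 0.682 in Ly6D- CLP, 0.378 to 0.603 in mutator and 0.281 to 0.334 in old HSC. In young HSC it was 0.180 between replicates 2 and 3, and 0.334 and 0.327 between these and replicate 1.

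**Figure D1:**
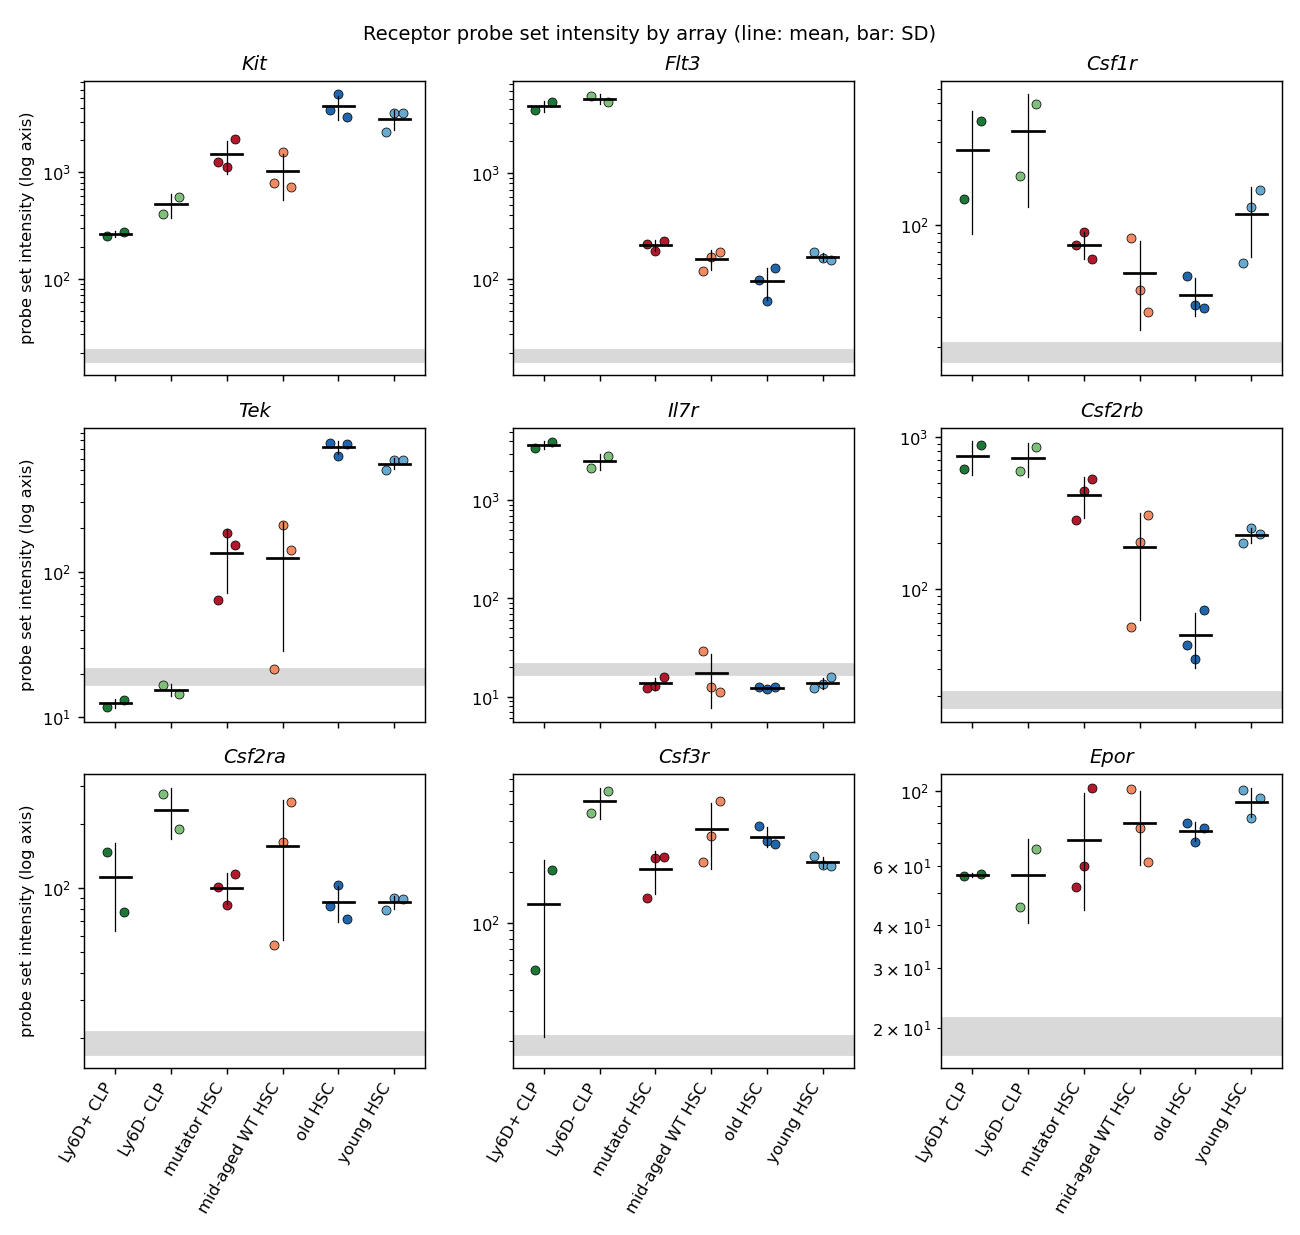
Probe set intensity of the 9 receptors on each array, on a log axis, by group. Points are arrays, lines are group means and bars are SD; the grey band is the range of the arrays' 40th percentiles (16.6 to 21.3), taken as background. Kit and Tek are high in old and young HSC, Flt3 and Il7r in both CLP groups, and Tek in CLP and nearly all Il7r values in HSC lie at background.

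Kit, the receptor for stem cell factor on which HSC depend, was highest in old and young HSC. Its intensity was 251 and 276 in Ly6D+ CLP and 409.6 and 588 in Ly6D- CLP. In HSC it was 1248, 1119.6 and 2045 in mutator, 788, 1565 and 719.7 in mid-aged WT, 3850.45, 5399 and 3314 in old and 2391, 3603 and 3585 in young HSC. The mutator and mid-aged WT arrays overlapped, as did old and young, while both mid-aged groups lay below every old and young array and above every CLP array.

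Tek, the angiopoietin receptor of endothelium and stem cells, fell into the same order. Old HSC had 765, 629 and 755, above all young arrays at 499.6, 582 and 582. Mutator HSC had 64.1, 185 and 154, and mid-aged WT HSC had 21.3, 211 and 141, so these groups overlapped and mid-aged WT replicate 1 was at background. All CLP arrays were at background, with 11.8 and 13.1 in Ly6D+ CLP and 16.6 and 14.4 in Ly6D- CLP.

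Flt3, the receptor for Flt3 ligand that marks multipotent and lymphoid progenitors, was bright in CLP and dim but above background in all HSC. It was 3929 and 4687 in Ly6D+ CLP and 5381 and 4645 in Ly6D- CLP. Mutator HSC gave 213, 183.1 and 229, and mid-aged WT HSC gave 119, 162 and 181.7, so that the lowest mutator array lay just above the highest mid-aged WT array. Old HSC were lowest, at 99.0, 62.7 and 127, all under the young arrays at 179, 157 and 150.0.

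Csf1r, the receptor for macrophage colony-stimulating factor, varied within groups as much as between most of them. Its values were 141 and 395 in Ly6D+ CLP, 190.2 and 495 in Ly6D- CLP, 76.8, 91.0 and 64.4 in mutator and 84.7, 42.4 and 32.1 in mid-aged WT HSC. Old HSC had 51.2, 34.9 and 33.7, below all young arrays at 61.0, 126 and 159. Adjacent groups in the order of means overlapped throughout, although the 4 CLP arrays lay above every array of mutator, mid-aged WT and old HSC.

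Il7r, the chain that binds interleukin 7 and is required for mouse lymphocyte development, was at 3417 and 3929.8 in Ly6D+ CLP and 2162 and 2851 in Ly6D- CLP. No overlap was seen between these groups. In HSC it was at background on 11 of 12 arrays, at 11.0 to 15.9, and reached 28.8 in mid-aged WT replicate 1.

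Csf2rb, the signalling chain shared by the receptors for granulocyte-macrophage colony-stimulating factor, interleukin 3 and interleukin 5, varied widely among HSC. It was 614 and 880.4 in Ly6D+ CLP and 595 and 853 in Ly6D- CLP. Mutator HSC had 283, 438 and 530.3, and mid-aged WT HSC had 56.8, 203 and 309. Old HSC had 43.0, 34.8 and 72.6, against 201, 251 and 229 in young HSC. The old arrays thus lay below all young arrays, while mid-aged WT replicate 1 stood at the level of old HSC and the other mid-aged WT arrays near young HSC.

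Csf2ra, the partner chain that binds granulocyte-macrophage colony-stimulating factor, was even in old, young and mutator HSC and spread wider elsewhere. Its intensity was 148 and 77.4 in Ly6D+ CLP and 277 and 189 in Ly6D- CLP. Mutator HSC had 101, 83.5 and 117, and mid-aged WT HSC had 54.1, 164 and 253. Old HSC had 82.5, 104 and 71.6, overlapping young HSC at 78.6, 89.9 and 89.2.

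Csf3r, the receptor for granulocyte colony-stimulating factor, was 52.5 and 204 in Ly6D+ CLP and 442 and 594 in Ly6D- CLP, with no overlap. Mutator HSC had 139, 239 and 242, overlapping mid-aged WT HSC at 227, 323 and 521. Old HSC had 371, 304 and 290.0, all above young HSC at 247, 219 and 216.

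Epor, the erythropoietin receptor, was low and even. It was 55.9 and 56.9 in Ly6D+ CLP, 45.2 and 67.3 in Ly6D- CLP, 51.9, 59.98 and 102 in mutator and 101, 77.7 and 61.7 in mid-aged WT HSC. Old HSC had 80.0, 70.6 and 77.7, just under young HSC at 100.1, 82.8 and 94.9. No pair of neighbouring groups was separated in the order of means.

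The first comparison asks which receptors differed in HSC of mutator mice from those of mid-aged WT mice. No receptor passed the test: 0 of 8 had an adjusted p under 0.05 in limma, beside 0% of the 13481 genes tested (0 genes; 984, or 7.3%, had an unadjusted p under 0.05). Csf2rb was the member with the smallest p, at a log2 difference of 1.28 ± 0.45 (SE), unadjusted p = 0.0159 and adjusted p = 0.608. Csf3r had a log2 difference of -0.70 ± 0.28 (unadjusted p = 0.0264, adjusted p = 0.636). These were the 2 members under 0.05 without adjustment. Kit had 0.55 with a 95% interval of -0.17 to 1.27, and Flt3, whose groups did not overlap, had 0.41 (-0.07 to 0.89). Such an absence of overlap was found for 1 of 8 receptors, beside 6.08% of all genes tested. The median log2 difference was 0.38 over the 8 receptors and -0.00 over all genes tested. Of the ligands, other receptors, signal transducers, inhibitors and signalling targets of these pathways, 0 of 9, 0 of 38, 0 of 31, 0 of 27 and 0 of 20 genes tested were called. Leaving out mid-aged WT replicate 1 gave Csf2rb 0.65, and without mid-aged WT replicate 3 it was 1.73 on the log2 scale, neither called.

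The next comparison concerns physiologic ageing, old against young HSC. Again 0 of 8 receptors were called, beside 1.31% of all genes tested, although 3 had an unadjusted p under 0.05, as did 9.03% of all genes. Csf2rb had the largest difference, a log2 value of -1.91 ± 0.45 (SE; adjusted p = 0.0725), with a mean intensity of 50.1 ± 19.9 in old and 227 ± 25.2 in young HSC (SD, n = 3 each). Csf1r had -1.17 ± 0.32 (adjusted p = 0.149) and Flt3 -0.71 ± 0.22 (adjusted p = 0.214). Kit had 0.38 (95% interval -0.34 to 1.10) and Tek 0.36 (-0.83 to 1.55). The old and young arrays did not overlap for 6 of 8 receptors, namely Flt3, Csf1r, Csf2rb and Epor (old lower) and Csf3r and Tek (old higher), beside 27.2% of all genes tested. The median over the 8 receptors was -0.12 on the log2 scale, against -0.01 over all genes tested. Beside these values of Csf1r and Csf2rb, the 10 monocyte and macrophage markers summed to 769 to 965 in old and 1098 to 1557 in young HSC, with 5 of 10 above background on each old array and 8 or 9 on the young arrays. The 8 neutrophil markers summed to 163 to 1438 in old and 1121 to 5434 in young HSC, with 5 to 7 of 8 above background in old and 7 in young HSC. The 7 erythroid markers summed to 499 to 606 in old and 628 to 1066 in young HSC. In the other direction, the 6 megakaryocyte markers summed to 3750 to 5497 in old and 2087 to 2617 in young HSC, and 3 of 7 HSC markers were called higher in old HSC, with sums that did not overlap. In bulk RNA fewer cells of a type and less RNA per cell cannot be told apart, and the part of such cells in these values was not tested. Csf2rb passed the threshold under 6 of the alternative settings given in the closing section.

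Among the other genes of these pathways, 4 of 38 further receptors were higher in old than in young HSC, beside 1.05% of all genes tested, and none was lower, while none of 9 ligands, 31 signal transducers, 27 inhibitors and 20 signalling targets was called. Bmpr1a, a receptor for bone morphogenetic proteins, averaged 459.7 ± 43.1 in old and 78.1 ± 12.1 in young HSC (SD, n = 3 each), a log2 difference of 2.34 (adjusted p = 0.00763). Osmr, the oncostatin M receptor, averaged 154 ± 43.5 in old and 11.7 ± 2.76 in young HSC, where it was under background. Il6st (gp130), the signalling chain that Osmr pairs with, had 0.82 (adjusted p = 0.0386), and Kdr, a receptor for vascular endothelial growth factor, had 1.09 (adjusted p = 0.0490). The calls of Il6st and Kdr were lost whichever of the 6 arrays was left out, and that of Osmr without 2 of them.

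**Figure D2:**
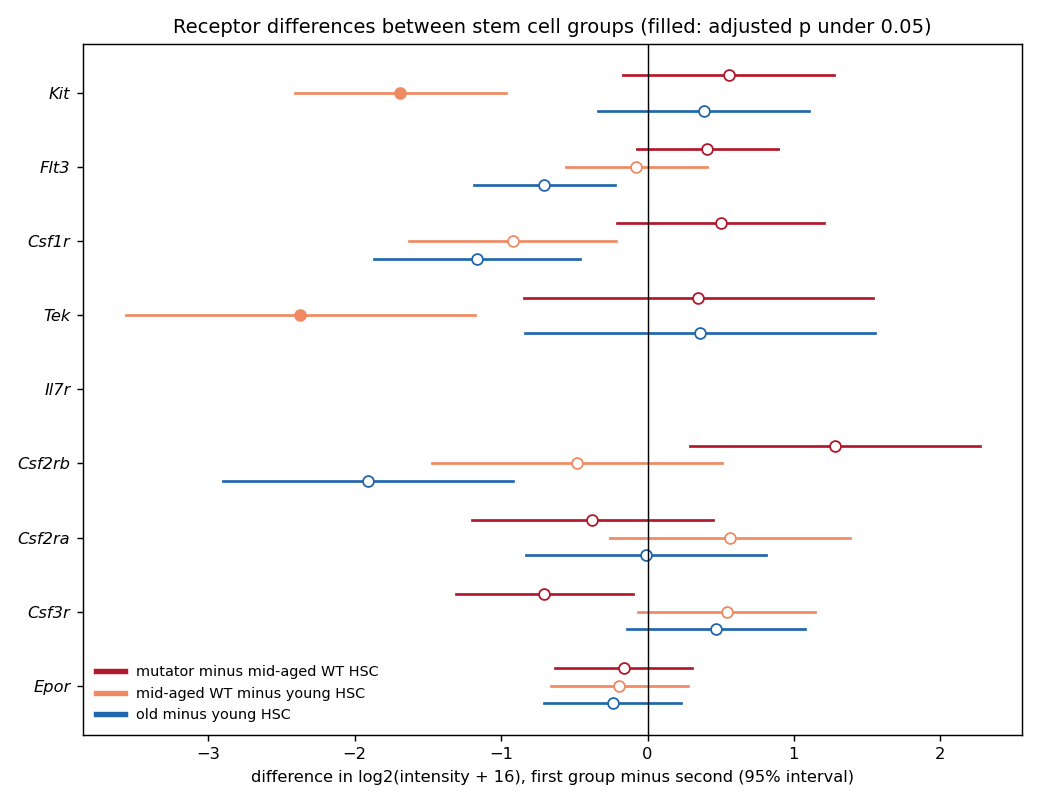
Differences in log2(intensity + 16) between HSC groups for each receptor, with 95% intervals that are not adjusted for the number of genes. Filled points have an adjusted p under 0.05 over all genes tested; the filled points are Kit and Tek in mid-aged WT against young HSC. Il7r was not tested among HSC.

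Whether the mutator effect and the ageing effect differed was tested as 1 contrast, mutator minus mid-aged WT less old minus young. Of the receptors 0 of 8 passed, beside 0.512% of all genes tested, and 4 had an unadjusted p under 0.05, beside 7.74% of all genes. Csf2rb had the largest value, 3.19 ± 0.64 (SE) on the log2 scale with an adjusted p of 0.0593. Its own 2 differences pointed opposite ways, 1.28 for mutator and -1.91 for old HSC. Csf1r had 1.66 ± 0.46 (adjusted p = 0.225), Flt3 1.12 ± 0.31 (adjusted p = 0.235) and Csf3r -1.17 ± 0.39 (adjusted p = 0.379). Csf2rb passed without mid-aged WT replicate 1 (adjusted p = 0.0145) and without replicate 3 (adjusted p = 0.0240). Outside the receptor set, Il6st was the only pathway gene called here, at -1.44 (adjusted p = 0.0214), and it lost the call in 7 of 12 fits that left out an array.

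Mid-aged WT against young HSC compares wild-type HSC at 32 weeks with those at 9 to 12 weeks, 2 groups that also differed in the actin ratio given above. Kit and Tek were lower in mid-aged WT HSC and no receptor was higher: 2 of 8 were called, beside 17.7% of all genes tested that were lower, 6.42% that were higher and 24.2% in either direction. Kit averaged 1024 ± 470 in mid-aged WT and 3193 ± 695 in young HSC (SD, n = 3 each), a log2 difference of -1.69 ± 0.33 (SE; adjusted p = 0.00408). Tek averaged 124 ± 95.8 in mid-aged WT and 555 ± 47.6 in young HSC, a log2 difference of -2.37 ± 0.54 (adjusted p = 0.00934). Both calls held in each of the 6 fits without 1 array, Tek at -1.59 without mid-aged WT replicate 1. Kit and Tek were also the 2 of 8 receptors whose arrays did not overlap, beside 38.3% of all genes tested. Csf1r had -0.92 (adjusted p = 0.0587) and was called in 5 of 13 alternative settings, and the other 5 receptors lay between -0.48 and 0.56. The median was -0.34 over the 8 receptors and -0.04 over all genes tested. Over all genes tested 866 were higher and 2392 lower in mid-aged WT HSC, and 1261 and 1801 after quantile normalization. Beside the lower Kit and Tek, the HSC marker sum was also lower, at 7475 to 9517 in mid-aged WT and 11305 to 11896 in young HSC, with 2 of 7 markers called lower and a median log2 difference of -0.13. The part of RNA quality and of the HSC content in these differences was not tested, and without mid-aged WT replicate 1 the number of receptors called was 5.

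Genes of the signalling chain below the receptors were called in the same comparison. Of 31 signal transducers 10 were lower and 1 higher in mid-aged WT than in young HSC, which is 32.3% lower beside 17.7% of all genes tested and 3.23% higher beside 6.42%. Stat5b, a transcription factor activated by most of these receptors, averaged 166 ± 82.9 in mid-aged WT and 614 ± 83.5 in young HSC, a log2 difference of -1.91 (adjusted p = 0.00220). Nras (-1.20), the phosphatase gene Ptpn11 (-1.03) and the kinase gene Map2k1 (-1.15), all of the Ras and MAP kinase pathway, were lower too. Among 27 inhibitors 8 were lower (29.6%) and 2 higher (7.41%): Dusp6, which dephosphorylates ERK, had a log2 difference of -2.51, Socs7 -1.37 and Ptprc (CD45) -1.69, while Ptpn2 had 1.02. Of 9 ligands 2 were lower, Angpt1 (-1.15), the ligand of Tek, and Il15 (-1.52). Of 38 other receptors 6 were lower, among them Met (-1.32), Tgfbr1 (-1.47) and Ifngr1 (-1.08), and 1 was higher, Crlf2 (0.88). Of 20 signalling targets 3 were lower, Dusp4 (-1.65), Tnfrsf13c (-0.75) and Etv5 (-0.85), and 1 was higher, the cyclin gene Ccnd2 (1.41). The lower shares were thus 22.2% of ligands, 15.8% of other receptors and 15% of signalling targets, near the 17.7% of all genes. Met was at background on 2 of 3 mid-aged WT arrays. The calls of Il15 and Etv5 were lost in 5 of 6 fits without 1 array and that of Tnfrsf13c in 4.

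The CLP groups were set against young HSC, the wild-type HSC nearest in age; both comparisons share the 3 young arrays. In Ly6D+ CLP 5 of 9 receptors were called, beside 24.3% of the 14343 genes tested (10.4% higher and 13.9% lower), with Flt3, Il7r and Csf2rb higher and Kit and Tek lower. In Ly6D- CLP 6 of 9 were called, beside 24.4% (9.55% higher and 14.9% lower), those 5 genes and Csf2ra, which was higher. Il7r entered the tests only through its level in CLP and so had to differ. Tek, at background on every CLP array, entered only through its level in HSC and so had to differ as well. Of the 8 receptors other than Il7r, 4 were called in Ly6D+ CLP and 5 in Ly6D- CLP, Tek among them. Kit and Flt3 were also among them, and their difference can be set by the sort. The calls that remain are Csf2rb in both CLP groups and Csf2ra in Ly6D- CLP. The arrays did not overlap for 7 of 9 receptors in Ly6D+ CLP and for 9 of 9 in Ly6D- CLP (6 and 8 of 8 without Il7r), beside 58.4% and 57.6% of all genes tested. The medians over the 8 receptors other than Il7r were -0.15 and 1.19 on the log2 scale, against 0.01 and -0.00 over all genes tested.

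Il7r averaged 3673 ± 363 in Ly6D+ CLP (SD, n = 2) and 13.8 ± 1.79 in young HSC (n = 3), where every array was at background, so that it was at least 215-fold higher, given as a description with no test. The bound sets the mean log2 value of the bright group against the background percentile of the dim arrays. In Ly6D- CLP it averaged 2507 ± 487 and was at least 146-fold higher than in young HSC. Flt3 rose by a log2 value of 4.60 ± 0.24 (SE) in Ly6D+ CLP and 4.82 ± 0.24 in Ly6D- CLP, with adjusted p = 1.80e-08 and 1.62e-08. Tek was at background on every CLP array and at least 31.0-fold lower in both Ly6D+ CLP and Ly6D- CLP than in young HSC, given as a description with no test. Kit was lower by a log2 value of -3.50 ± 0.35 in Ly6D+ CLP and -2.64 ± 0.35 in Ly6D- CLP (adjusted p = 1.18e-05 and 0.000174). Flt3 and Kit kept their calls in each of 5 fits without 1 array in both comparisons, though both differences can be set by the sort. With mid-aged WT HSC in place of young HSC, Kit in Ly6D- CLP had -0.95 (adjusted p = 0.0769) and was no longer called, and Tek was at least 4.81-fold lower in Ly6D+ CLP and 4.82-fold lower in Ly6D- CLP.

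Of the myeloid receptors, Csf2rb was higher by 1.64 ± 0.49 in Ly6D+ CLP (adjusted p = 0.0265) and by 1.59 ± 0.49 in Ly6D- CLP (adjusted p = 0.0309). Csf2ra was higher by 1.27 ± 0.43 in Ly6D- CLP (adjusted p = 0.0464), while in Ly6D+ CLP it had 0.28 (95% interval -0.64 to 1.21). These 3 calls were lost in each of the 5 fits without 1 array. Csf1r had 1.03 in Ly6D+ CLP (adjusted p = 0.141) and 1.39 in Ly6D- CLP (adjusted p = 0.0508), where 5 of 13 alternative settings called it. Csf3r pointed opposite ways, -0.99 in Ly6D+ CLP (adjusted p = 0.113) and 1.12 in Ly6D- CLP (adjusted p = 0.0718). Of the 13 alternative settings, 1 called it in Ly6D+ CLP and 4 in Ly6D- CLP. Epor had -0.58 and -0.60, with adjusted p = 0.0924 and 0.0817. The monocyte and macrophage markers summed to 533 and 581 in Ly6D+ CLP and 794 and 721 in Ly6D- CLP, below the 1098 to 1557 of young HSC, where Lyz2 alone averaged 816. The neutrophil markers summed to 184 to 236 on 3 of the CLP arrays and to 4561 in Ly6D- replicate 2, against 1121 to 5434 in young HSC. The part of such cells in the Csf2rb and Csf2ra values was not tested.

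**Figure D3:**
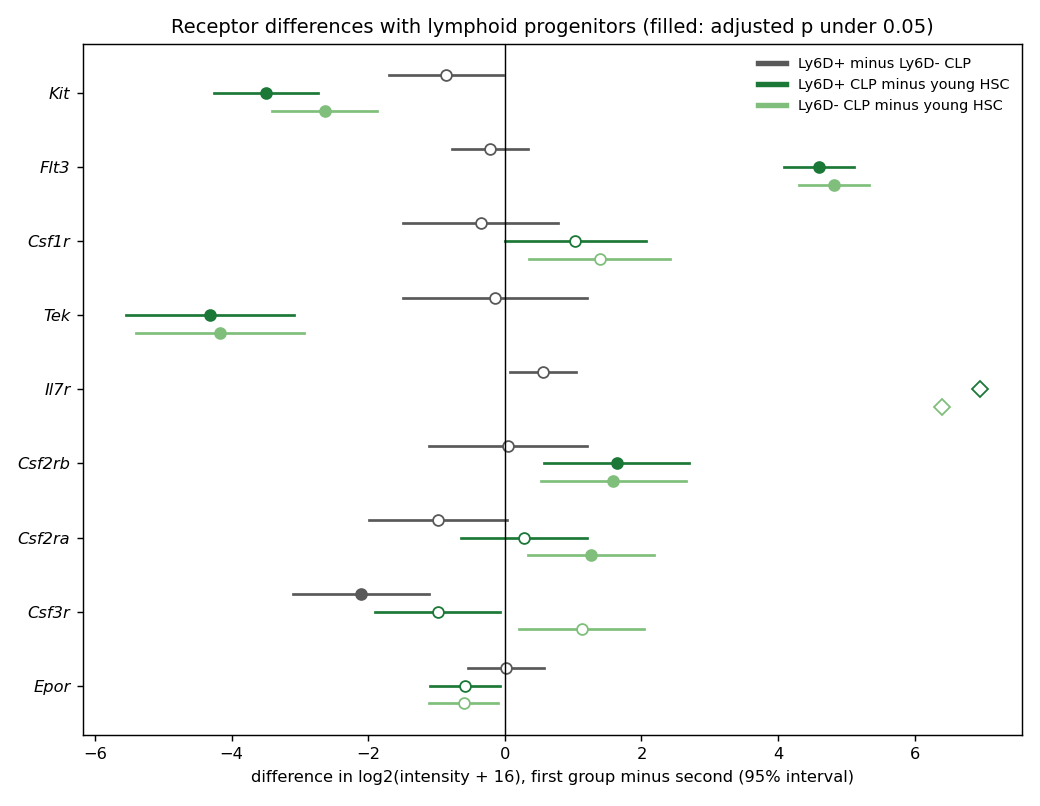
Differences in log2(intensity + 16) for each receptor in comparisons with CLP, with 95% intervals that are not adjusted for the number of genes. Filled points have an adjusted p under 0.05 over all genes tested. Il7r against young HSC is drawn as an open diamond with no interval, since it was tested only through its CLP values. Tek against young HSC is drawn like the other receptors, though it passed the filter only through HSC. Il7r and Flt3 lie far to the right and Kit and Tek to the left in both comparisons with young HSC, and Csf3r is the filled point between the CLP groups.

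Il10ra, the ligand-binding chain of the interleukin 10 receptor, and Il6st were among the other receptors higher in CLP. Il10ra averaged 282 ± 15.05 in Ly6D+ CLP and 65.7 ± 6.74 in Ly6D- CLP (SD, n = 2 each), against 14.7 ± 2.87 in young HSC (n = 3), which is below background. Il6st averaged 549 ± 4.64 and 599.7 ± 156 in the same CLP groups and 191 ± 19.4 in young HSC. Il1r1, the interleukin 1 receptor, was at 822 ± 18.9 in Ly6D- CLP and 126 ± 33.0 in young HSC. Ghr, the growth hormone receptor, was at 10.3 and 13.1 in Ly6D+ CLP, both at background, and at 7.65 and 21.5 in Ly6D- CLP, 1 of them at background, against 413 ± 59.5 in young HSC. In all, 7 of 42 other receptors were higher and 6 lower in Ly6D+ CLP, and 10 were higher and 5 lower in Ly6D- CLP. As shares, 16.7% were higher and 14.3% lower in Ly6D+ CLP, beside 10.4% and 13.9% of all genes tested, and 23.8% were higher and 11.9% lower in Ly6D- CLP, beside 9.55% and 14.9%. Among HSC alone 38 of these receptors passed the filter on low values, against 42 here. Some may therefore have been tested only through their CLP values, and such a gene would have to be higher in CLP. The shares of all genes were taken under the same filter.

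None of 10 ligands was higher in CLP, and 3 were lower in Ly6D+ CLP and 2 in Ly6D- CLP. Angpt1 averaged 317 ± 139 in Ly6D+ CLP and 325 ± 144 in Ly6D- CLP, against 4051 ± 371 in young HSC. Il7, the ligand of Il7r, had a log2 difference of -1.92 in Ly6D+ CLP, and in Ly6D- CLP it was called lower with 1 of 2 arrays at background (14.4 and 21.2, against a mean of 129.7 in young HSC). Il15 was lower by -2.77 in Ly6D+ CLP. Of 31 signal transducers 2 were higher and 7 lower in Ly6D+ CLP and 2 were higher and 9 lower in Ly6D- CLP. Plcg2, a phospholipase of B cells, was higher by 1.67 in Ly6D+ CLP and by 1.29 in Ly6D- CLP, Sos2 lower by -1.73 and -1.56, and the Janus kinase genes Jak1 and Jak2 had -1.52 and -1.89 in Ly6D+ CLP. Of 27 inhibitors 4 were higher and 6 lower in Ly6D+ CLP, and 4 higher and 9 lower in Ly6D- CLP. The adaptor gene Dok2 was higher by 2.12 and 1.88 and Socs4 lower by -1.47 and -1.34. Of 20 signalling targets 5 were higher and 4 lower in Ly6D+ CLP, and 4 higher and 3 lower in Ly6D- CLP. Myc had 1.85 and 1.48 and Dusp5 2.51 and 2.02, while Dusp4 was at background on all CLP arrays and at least 13.6-fold lower in each CLP group than in young HSC. The lists' shares stood beside 10.4% of all genes higher and 13.9% lower in Ly6D+ CLP, and 9.55% higher and 14.9% lower in Ly6D- CLP. Of the signal transducers 6.45% were higher in each CLP group, and 22.6% were lower in Ly6D+ CLP and 29% in Ly6D- CLP. Of the inhibitors 14.8% were higher in each, and 22.2% were lower in Ly6D+ CLP and 33.3% in Ly6D- CLP. Of the targets 25% were higher and 20% lower in Ly6D+ CLP, and 20% higher and 15% lower in Ly6D- CLP.

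Between the CLP groups, Ly6D+ against Ly6D-, Csf3r was lower and the other receptors were not called: 1 of 9 passed, beside 2.68% of all genes tested (1.49% higher and 1.19% lower). Csf3r averaged 128 ± 107 in Ly6D+ CLP and 518 ± 107 in Ly6D- CLP (SD, n = 2 each), a log2 difference of -2.11 ± 0.46 (SE; adjusted p = 0.0293). Without Ly6D+ replicate 1 the difference was -1.27 and without Ly6D- replicate 2 it was -1.90, and neither was called. Without Ly6D+ replicate 2, the array with the higher actin ratio, it was -2.95 (adjusted p = 0.00265). Kit had -0.86 (adjusted p = 0.367), Il7r 0.56 (adjusted p = 0.279) and Csf2ra -0.98 (adjusted p = 0.406). Flt3 had -0.22 with a 95% interval of -0.78 to 0.34, and Csf2rb 0.05 with -1.11 to 1.20. The arrays did not overlap for 5 of 9 receptors, Kit, Il7r, Csf3r, Csf2ra and Tek, beside 35.3% of all genes tested; the Tek values were all at background. The median was -0.22 over the 9 receptors and 0.01 over all genes tested.

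Neutrophil transcripts moved with 1 of the Ly6D- arrays. The 8 neutrophil markers summed to 184 and 236 in Ly6D+ CLP and to 189.7 and 4561 in Ly6D- CLP, with 4 of 8 above background in both Ly6D+ arrays and in Ly6D- replicate 1. Csf3r was at 442 in Ly6D- replicate 1, where the sum was 189.7, and at 594 in replicate 2, where the sum was 4561. In Ly6D+ CLP, with sums in the range of that first array, Csf3r was at 52.5 and 204. The part of neutrophil RNA in the Csf3r difference was not tested further.

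**Figure D4:**
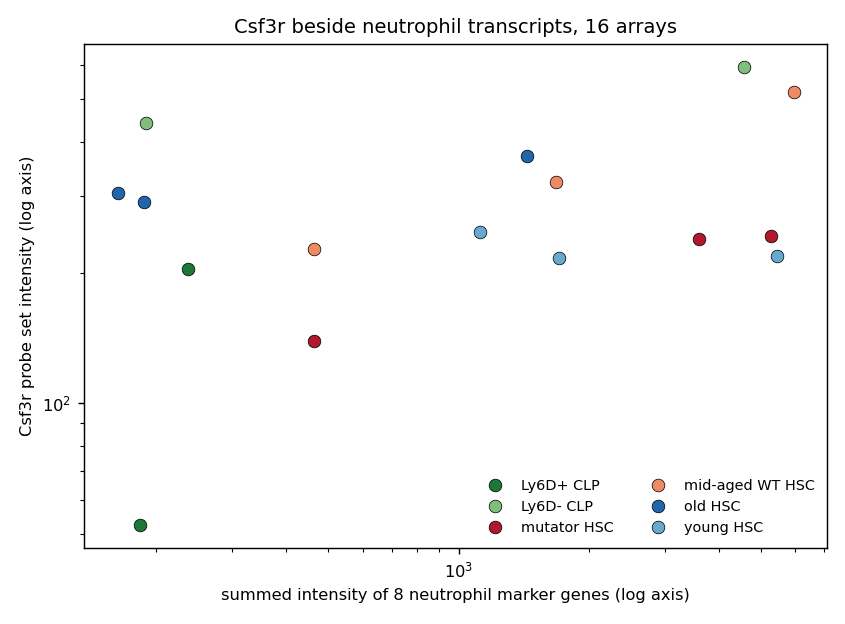
Csf3r intensity against the summed intensity of the 8 neutrophil marker genes on the 16 arrays, both on log axes, with colours for the groups. The Ly6D- array with Csf3r at 442 has a sum of 189.7, as low as in the Ly6D+ arrays.

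In other pathway genes, Ly6D+ CLP had higher Il10ra (1.87, adjusted p = 0.000199) and lower Il1r1 (-1.73, adjusted p = 0.0193) and Igf1r (-1.45, adjusted p = 0.0347) than Ly6D- CLP, so that 1 of 42 other receptors was higher (2.38%, beside 1.49% of all genes tested) and 2 were lower (4.76%, beside 1.19%). The cyclin gene Ccnd3 was the 1 of 20 signalling targets called, at 1847 ± 22.7 in Ly6D+ CLP and 416 ± 9.22 in Ly6D- CLP, a log2 difference of 2.11 (adjusted p = 0.0150). None of 10 ligands, 31 signal transducers and 27 inhibitors was called. The Il10ra call held in all 4 fits without 1 array, while that of Il1r1 was lost in 3, and those of Igf1r and Ccnd3 in 2.

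In all, 5 receptors had 1 or 2 further probe sets, which differ in the stretch of the transcript they read. The second Kit probe set was called in the same 3 comparisons, at -1.52 in mid-aged WT against young HSC, -1.57 in Ly6D+ CLP and -1.07 in Ly6D- CLP against young HSC. It did not keep the mid-aged groups above CLP: Ly6D+ CLP had 31.0 and 86.4, and Ly6D- CLP had 72.9 and 92.3. On the same probe set mutator HSC ran from 59.4 to 82.9 and mid-aged WT HSC from 38.9 to 86.5. A second Il7r probe set was 667.5 to 766 in Ly6D+ CLP and 548 to 764 in Ly6D- CLP, against 9.45 at most in young HSC. Both further Csf1r probe sets were called higher in Ly6D- CLP (1.02 and 0.99), and 1 of them in Ly6D+ CLP (0.76). Among HSC they gave smaller values than the first, none called. In old against young HSC they had -0.40 and -0.08, where the first had -1.17. In the difference of effects they had 0.48 and 0.22, where the first had 1.66. Csf2rb had a second probe set that was at or near background in HSC. It was called higher in Ly6D- CLP (0.96) and was not called in Ly6D+ CLP (0.58). In mid-aged WT HSC, where every array was at background, it was called lower than in young HSC (-0.41). It had -0.38 in old against young HSC and 0.72 in the difference of effects. The first probe set had -1.91 and 3.19 there, and none of these values was called. The Csf2ra probe sets went different ways: the second had -0.21 in Ly6D- CLP against young HSC, where the first had 1.27, and was called higher in mid-aged WT than in young HSC (1.07, adjusted p = 0.0368), where the first had 0.56. Csf2rb has a near-identical mouse paralog, Csf2rb2, so its signal may not be separable from that gene.

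**Figure D5:**
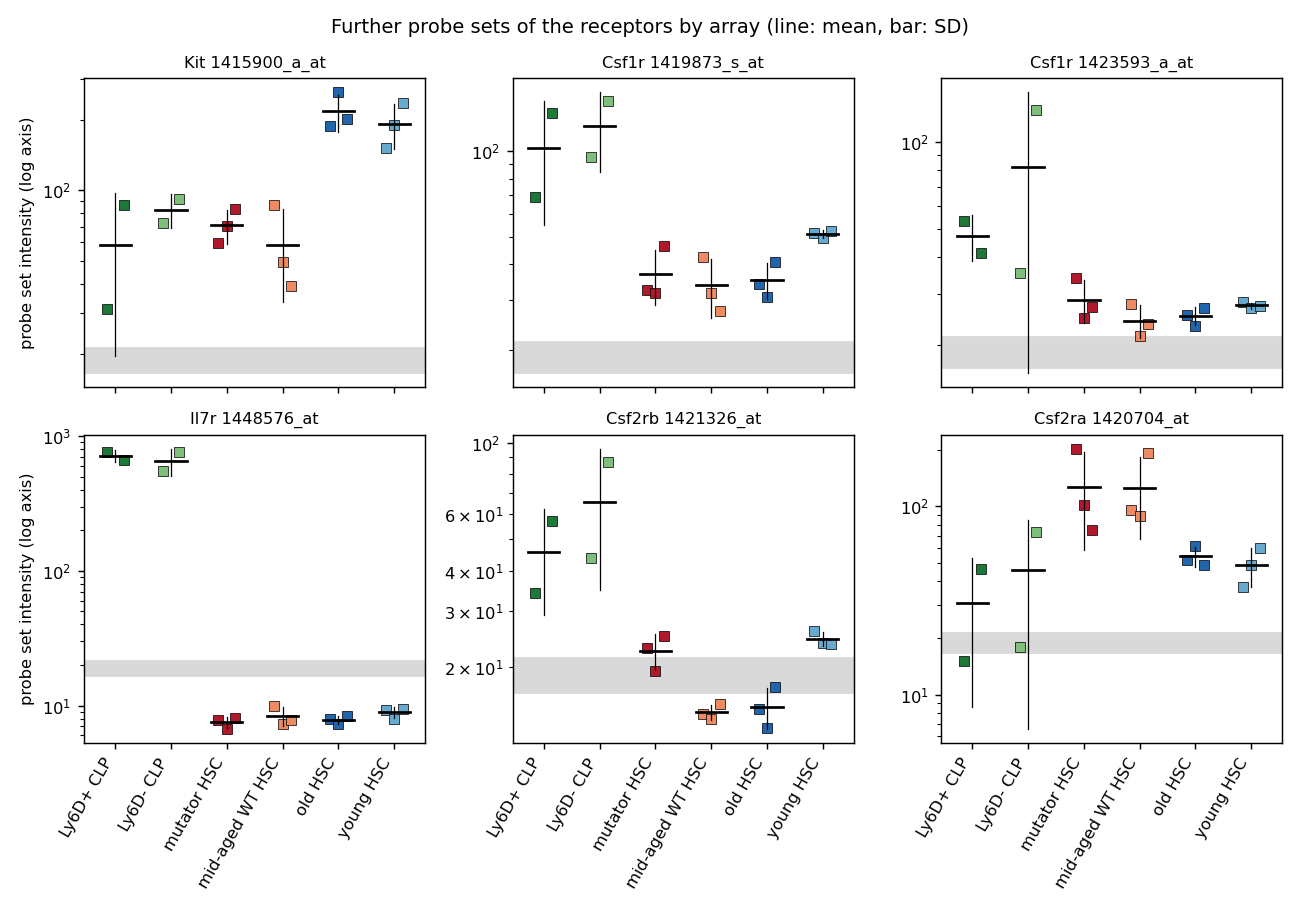
Intensity of the 6 further probe sets of Kit, Csf1r, Il7r, Csf2rb and Csf2ra on each array, on a log axis, by group. Squares are arrays, lines are means, bars are SD, and the grey band is background (16.6 to 21.3). The Kit and Il7r probe sets keep the order of CLP and young HSC seen with the brighter probe sets, and that of Csf2ra is highest in the mid-aged groups.

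For each receptor the 3 genes with the most similar pattern over the 16 arrays were found by Pearson's correlation of log2(intensity + 16). The 16 arrays share their groups and libraries, so these values are a description with no test. Kit was nearest to Dach1 (0.98), Msantd4 (0.97) and Cpd (0.96), and Tek to Slc12a2 (0.98), Fzd7 (0.98) and Podxl (0.98). Flt3 was nearest to Satb1 (0.99), Atp8b4 (0.99) and Dntt (0.99), and Il7r to Cmah, Ptger2 and Dntt (each 0.996). Dntt encodes the terminal transferase of lymphoid progenitors. Csf2rb was nearest to Mcm2 (0.94), Cdt1 (0.93) and Ncaph (0.92), genes of DNA replication licensing and chromosome condensation. The nearest genes of Csf1r (Ncf1, 0.89; Aars, 0.89; Col20a1, 0.89), Csf3r (Det1, 0.88; Txnrd2, 0.87; Slc17a5, 0.80), Csf2ra (Sh3gl1, 0.92; Kmt2a, 0.85; Vps72, 0.84) and Epor (Ikbip, 0.86; Zfp597, 0.81; Klhl8, 0.80) were less close.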

How the data were processed

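Total RNA of 16 sorted samples was amplified and hybridised to mouse expression arrays. The authors deposited 1 intensity per probe set on a linear scale for 45101 probe sets; how these were summarised, background-corrected and normalized is not stated in the labels or file headers. Each value was transformed to log2(intensity + 16). The 34958 probe sets with 1 gene symbol were used, and 932 with several and 9211 with none were left out. Genes had to exceed the array's 40th percentile, taken as background, on at least 3 of 12 HSC arrays (13481 genes) or 2 of 16 arrays (14343 genes). Linear models (lmFit, eBayes; limma 3.58.1 on R 4.3.3) used 12 arrays for HSC comparisons and 16 for those with CLP. Benjamini-Hochberg adjustment ran over all genes tested, and a call is an adjusted p under 0.05. The fit was tested on simulated data.

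Samples were grouped by title; replicates are labelled biological. The number of arrays limits the precision. Named genes are the 9 receptors, up to 4 called genes per pathway list and comparison by smallest adjusted p, the 3 nearest genes of each receptor and library checks. The receptors and lists were chosen with earlier results of these data known. The pathway lists matched 11 of 14 ligands, 46 of 50 other receptors, 31 of 39 signal transducers, 28 of 29 inhibitors (27 distinct genes) and 21 of 21 signalling targets. Replicate numbers shared between groups were not used as pairs in the main fit. The labels do not say whether same-numbered arrays belong together. Correlations of their deviations were mixed and cannot settle it with so few arrays per group. The alternatives tried are named in the closing section; fitting every probe set on its own was chosen after seeing the data.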

Additional observations from a re-analysis of the deposited data

Results flagged for a closer look

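Flt3 differences pointed opposite ways in the 2 stem cell comparisons, though neither passed the test (log2 difference 0.41, adjusted p = 0.744 in mutator against mid-aged WT HSC, and -0.71, adjusted p = 0.214 in old against young HSC). Every mutator array (183.1 to 229) lay above every mid-aged WT array (119 to 181.7), and every old array (62.7 to 127) lay below every young array (150.0 to 179). The difference between the effects was 1.12 on the log2 scale (SE 0.31, adjusted p = 0.235 in limma), which did not pass the threshold.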

How the results depend on the processing

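Alternatives were tried 1 at a time. Old against young HSC had 0 receptors called as reported, 1 (Csf2rb) with a 60th percentile filter, the mean of all probe sets, trended and robust eBayes or the replicate block, 2 with only the groups compared in the fit and 4 with array weights. The difference of effects had 0 as reported, 1 (Csf2rb) with the 60th percentile filter, a pseudocount of 1, the mean of all probe sets, trended and robust eBayes, the replicate block or all 16 arrays, and 3 with array weights. Mid-aged WT against young HSC had 2 as reported and 5 with array weights, and Csf1r was added under the further settings named below. Ly6D+ against Ly6D- CLP had 1, and 2 with a pseudocount of 64 (Il7r added), 0 with array weights and 0 with only the CLP groups fitted. Genes called in old against young HSC were 176, against 1879 with array weights, 1007 with only those groups and 93 with young replicates 2 and 3 counted as 1. In the difference of effects they were 69, against 483 with array weights and 38 with young replicates 2 and 3 counted as 1. In Ly6D+ against Ly6D- CLP they were 384, against 105 with array weights and 0 with only those groups, and in mid-aged WT against young HSC 3258, against 2031 with young replicates 2 and 3 counted as 1.

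Some uncalled receptor values changed sign, all small. Flt3 in mid-aged WT against young HSC was 0.081 after quantile normalization and 0.11 with array weights. Tek in the difference of effects was 0.11 after quantile normalization and 0.13 with a pseudocount of 1. Csf2ra in old against young HSC was 0.062 with the mean of all probe sets and 0.017 with young replicates 2 and 3 counted as 1. Csf2ra in Ly6D+ CLP against young HSC was -0.13 with the mean of all probe sets and -0.28 with mid-aged WT HSC as the baseline. Csf2rb in Ly6D+ against Ly6D- CLP was -0.16 with the mean of all probe sets. Median centring and no filter on low values changed no count of receptors by over 1.5 times, but the Csf2ra call in Ly6D- CLP was lost with both (adjusted p = 0.0580 and 0.0669), as it was with the mean of all probe sets (0.261), mid-aged WT HSC as the baseline (0.283) and young replicates 2 and 3 counted as 1 (0.0919). Csf1r was called in mid-aged WT against young HSC with median centring, the 60th percentile filter, the mean of all probe sets, trended and robust eBayes and array weights (adjusted p = 0.00838 to 0.0479). It was called in Ly6D- CLP against young HSC with quantile normalization, the 60th percentile filter, the mean of all probe sets, trended and robust eBayes and the mid-aged WT baseline (adjusted p = 0.00415 to 0.0456). In old against young HSC it was called with array weights and with only the groups compared (adjusted p = 0.000516 and 0.0482).

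Leaving out each array in turn gave 0 to 1 receptors called in old against young HSC, 0 to 1 in the difference of effects, 2 to 5 in mid-aged WT against young HSC and 0 to 1 in Ly6D+ against Ly6D- CLP. Genes called ranged from 88 to 111, 23 to 147, 2040 to 4158 and 281 to 748 in these comparisons, from 0 to 221 (without mid-aged WT replicate 2) in mutator against mid-aged WT HSC and from 2331 to 3093 in Ly6D- CLP against young HSC. Log2 values that changed sign ranged as follows. In Ly6D+ against Ly6D- CLP, Csf1r ran from -1.04 to 0.34, Csf2rb from -0.21 to 0.30 and Epor from -0.20 to 0.24. In the difference of effects, Csf2ra ran from -0.92 to 0.052, Epor from -0.16 to 0.23, Kit from -0.091 to 0.52 and Tek from -0.79 to 0.51. In mutator against mid-aged WT HSC, Csf2ra ran from -0.93 to 0.043 and Tek from -0.43 to 0.87. In mid-aged WT against young HSC, Csf2rb ran from -0.94 to 0.14 and Flt3 from -0.19 to 0.081. Csf2ra ran from -0.13 to 0.095 in old against young HSC and from -0.12 to 0.69 in Ly6D+ CLP against young HSC. The cause of these changes was not tested.

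With the replicate block, Csf2rb had an adjusted p of 0.0335 in old against young HSC and 0.0314 in the difference of effects, and Csf3r in Ly6D- CLP against young HSC 0.0486. Pairing by number is not stated in the labels and is not in the main fit. Deviations of same-numbered old and young arrays correlated at 0.50, 0.42 and -0.01, which cannot settle whether the arrays were paired. The block changed no other call of a receptor. Signal near background limits Tek in CLP, Il7r in HSC and the second Csf2rb probe set, and 2 or 3 arrays per group limit every comparison.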
